A study of Caenorhabditis elegans with 6 samples.

Results

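Tubulins are the subunits of microtubules, the hollow filaments that separate chromosomes, carry cargo along axons and build the core of cilia. An alpha and a beta tubulin bind each other to form the heterodimer that polymerizes, and a gamma tubulin at the centrosome helps to start new filaments. In C. elegans alpha and beta tubulins are each encoded by a small family of genes, some used in nearly every cell and some kept for particular neurons. Here 9 of these genes were described, namely the alpha tubulin genes tba-1, tba-2, tba-4 and mec-12 and the beta tubulin genes tbb-1, tbb-2, tbb-4, tbb-6 and mec-7. They were taken by gene symbol from the 46778 genes of the deposited values, and each symbol matched 1 identifier of the WBcel235 annotation. The set was chosen by the FPKM difference of tbb-6 in this very comparison, and the other 8 genes were added as members of its family, so the differences of all 9 genes between the groups are given as a description, without a test.

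RNA was sequenced from whole L4 larvae of the wild-type strain N2 grown at 20 °C on E. coli HT115, as 3 libraries after feeding of let-607 RNAi bacteria and 3 libraries after feeding of bacteria with the empty vector L4440 (control RNAi). Feeding began with synchronized L1 larvae, and the let-607 RNAi bacteria were diluted with control bacteria. RNAi by feeding gives worms double-stranded RNA that lowers the mRNA of the matching gene. Whole worms were extracted, so no value belongs to a single tissue, and fewer cells of a type cannot be told apart from less RNA per cell. Values are FPKM, fragment numbers that are scaled for the length of the transcript and the mapped fragments of the library, so levels of different genes can be compared per length. Log2 fold changes are of let-607 RNAi over control RNAi on the scale log2(FPKM + 0.1), from limma (linear models with moderated statistics) fitted to 15453 genes that averaged 0.5 FPKM or more. To pass, a gene needed an adjusted p (Benjamini-Hochberg, over all genes tested) under 0.1 together with a log2 fold change above 1 or below -1.

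The RNAi target did not check the labels. let-607 itself (WBGene00002783) averaged 75.04 ± 3.63 FPKM in libraries labelled let-607 RNAi and 61.2 ± 6.84 FPKM in control RNAi libraries (SD, n = 3 each). All libraries labelled let-607 RNAi lay above the control RNAi libraries, but not after median-of-ratios scaling between libraries. The log2 fold change was 0.30 (adjusted p = 0.034 from limma), so let-607 did not pass. Its FPKM was thus not lower, and each direction given here rests on the labels. Whether RNA from the RNAi trigger adds reads to the let-607 value was not tested, so the FPKM does not show that let-607 mRNA was not lowered. The qPCR measurement of let-607 in the study was not used here. Among all genes tested, 3.75% passed in the upward direction (579 genes) and 1.4% in the downward direction (216 genes), or 5.14% in either, and quantile normalization changed these numbers to 407 and 290 genes. The middle of all log2 fold changes was 0.12 rather than 0. Groups without overlap were frequent, with let-607 RNAi above control RNAi for 35.7% of all genes tested and below it for 13.4%. An unadjusted p under 0.05 was found for 32.7% of all genes tested as higher and 11.8% as lower, and the counts at that limit given for each gene list stand beside these shares.

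All 9 tubulin genes had a mean of at least 0.5 FPKM. Only tbb-6 (1 of 9, beside 5.14% of all genes tested in either direction) met the limits of a passing gene. Since tbb-6 was chosen for its difference in this contrast, this is no test of it. The other 8 genes had log2 fold changes between -0.15 and 0.33. The libraries labelled let-607 RNAi lay entirely above the control RNAi libraries for 6 of the 9 genes (35.7% of all genes tested) and entirely below them for mec-7 (13.4%), and the groups overlapped for tbb-4 and mec-12. After median-of-ratios scaling between libraries, the groups also overlapped for tbb-1 and tba-1. Since this contrast was used to choose the genes, nothing is read from these counts.

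**Figure D1:**
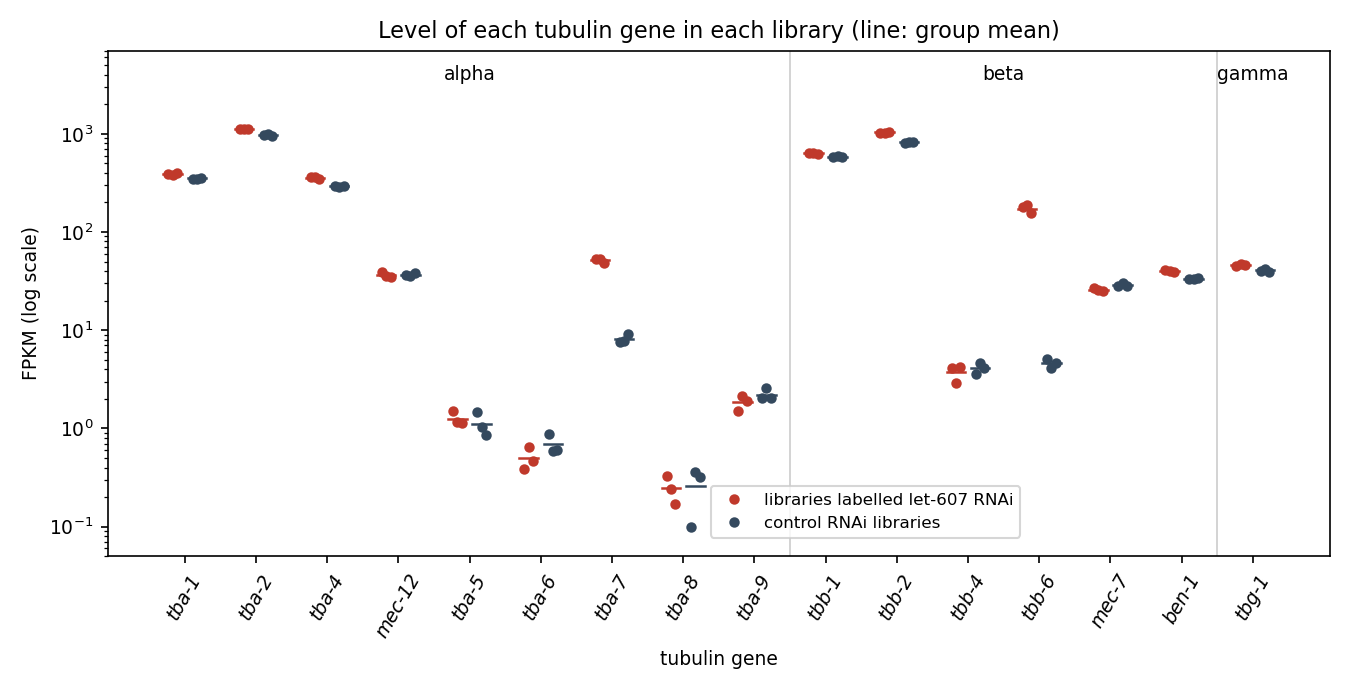
Level of each of the 16 tubulin genes of the annotation list in FPKM on a log axis, with 1 point per library and a line at the group mean, libraries labelled let-607 RNAi on the left and control RNAi libraries on the right of each gene. The pair that stands apart is tbb-6, at 154 to 187 FPKM against 4.15 to 5.12 FPKM, followed by tba-7 at 47.8 to 53.6 FPKM against 7.55 to 9.16 FPKM.

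tbb-6 (WBGene00006539) lies on chromosome V from 12261531 to 12263368 on the plus strand. It encodes a beta tubulin that is barely used in unstressed worms, and its promoter is known as a reporter that turns on when mitochondrial function is disrupted, through the p38-type kinase PMK-3. Its expression was 178, 187 and 154 FPKM in libraries labelled let-607 RNAi, against 5.12, 4.15 and 4.61 FPKM in the control RNAi libraries. The groups were far apart, and in each group the spread between libraries was small beside the gap. The means were 173 ± 16.9 FPKM in let-607 RNAi and 4.63 ± 0.485 FPKM in control RNAi (SD, n = 3 each), a ratio of 37.4. The log2 fold change was 5.20 (standard error 0.10), which ranked tbb-6 at place 16 of the 15453 genes tested. In the control RNAi libraries tbb-6 stood at the level of tbb-4, a tubulin of a small set of sensory neurons, with overlapping values. In the libraries labelled let-607 RNAi it was the third most abundant beta tubulin mRNA, below tbb-2 and tbb-1 and above the levels of mec-7 and tbb-4, without overlap with any of them. The annotation gives tbb-6 the shortest coding length of the 9 genes, 1278 bases, against 1323 to 1362 bases in the other 8.

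tbb-2 and tbb-1 encode the beta tubulins that most dividing and somatic cells of the worm share. tbb-2 (WBGene00006537, chromosome III, 4015910 to 4017627, minus strand) had 1028, 1020 and 1050 FPKM in libraries labelled let-607 RNAi, against 809, 831 and 827 FPKM in the control RNAi libraries. Its means of 1033 ± 15.5 FPKM in let-607 RNAi and 822 ± 11.49 FPKM in control RNAi (SD, n = 3 each) differed by 25.6%, a log2 fold change of 0.33 (standard error 0.03), or 0.20 once the median of 0.12 over all genes is taken off. Among the 8 genes other than tbb-6, tbb-2 had the largest log2 fold change. tbb-1 (WBGene00006536, chromosome III, 10740868 to 10742432, minus strand) had 631, 638 and 624 FPKM in libraries labelled let-607 RNAi, against 583, 589 and 579 FPKM in the control RNAi libraries. The log2 fold change of tbb-1 was 0.11 (standard error 0.03), or -0.012 once the median of 0.12 over all genes is taken off, and it turned to -0.0094 after median-of-ratios scaling. The ratio of tbb-2 to tbb-1, which a scaling factor per library cannot move, was 1.63, 1.601 and 1.68 in libraries labelled let-607 RNAi, against 1.39, 1.41 and 1.43 in the control RNAi libraries. The ratio did not overlap between the groups, and 49.1% of all genes tested did not overlap in either direction. No such share was computed for ratios of other gene pairs, and both genes belong to the chosen set, so nothing is read from this. How fragments that fit both genes were shared out is not known.

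On the alpha side, tba-2, tba-1 and tba-4 are the broadly used genes. tba-2 (WBGene00006529, chromosome I, 12964674 to 12966795, minus strand) was the most abundant of the tubulin mRNAs in both groups, with 1119, 1116 and 1130 FPKM in libraries labelled let-607 RNAi, against 968, 989 and 958 FPKM in the control RNAi libraries. tba-1 (WBGene00006528, chromosome I, 9785781 to 9787624, minus strand), which acts beside tba-2 in the mitotic spindle of the early embryo, had 387, 382 and 400.03 FPKM in libraries labelled let-607 RNAi, against 346, 350.12 and 357 FPKM in the control RNAi libraries. tba-4 (WBGene00006530, chromosome II, 10918706 to 10920211, plus strand) had 364, 361 and 342 FPKM in libraries labelled let-607 RNAi, against 295, 290.33 and 291 FPKM in the control RNAi libraries. None of these 3 genes overlapped between the groups in the deposited FPKM. Their log2 fold changes were 0.21 for tba-2, 0.15 for tba-1 and 0.28 for tba-4 (standard errors 0.03, 0.03 and 0.04). The ratio of tba-2 to tba-1 was 2.89, 2.92 and 2.83 in libraries labelled let-607 RNAi, against 2.80, 2.82 and 2.68 in the control RNAi libraries. Unlike the tbb-2 to tbb-1 ratio, it separated the groups only narrowly, by 2.83 against 2.82 between the nearest libraries.

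tba-1, tba-2, tbb-1 and tbb-2 are used throughout the germline, which proliferates in L4 larvae. Of 14 germline markers, such as the P granule gene pgl-1 and the Notch receptor gene glp-1, all were tested and none passed in either direction by limma, with 11 higher and 1 lower at an unadjusted p under 0.05. The groups did not overlap for 11 as higher in let-607 RNAi and for 1 as lower, beside 35.7% and 13.4% of all genes tested. After rescaling to TPM, without the first control RNAi library or without the first let-607 RNAi library, 1 marker passed as higher, mex-6, a gene named after its values were seen that had a log2 fold change of 0.98 in the deposited FPKM. Their median log2 fold change was 0.48, beside 0.12 for all genes tested. Their summed level was 1523 to 1670 FPKM in libraries labelled let-607 RNAi, against 1281 to 1399 FPKM in the control RNAi libraries. The ratio of the marker sums was 1.22, between the ratios of 1.08 for tbb-1 and 1.26 for tbb-2, and the part of the germline in the tubulin values was not tested.

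mec-7 and mec-12 encode the beta and the alpha tubulin of the touch receptor neurons, which hold unusually thick microtubules that the worm needs to sense gentle touch. mec-7 (WBGene00003171, chromosome X, 7774856 to 7776689, minus strand) had 26.7, 25.6 and 24.95 FPKM in libraries labelled let-607 RNAi, against 27.9, 29.9 and 28.2 FPKM in the control RNAi libraries. It was the only one of the 9 genes whose libraries labelled let-607 RNAi all lay below the control RNAi libraries. The log2 fold change of mec-7 was -0.15 (standard error 0.05), or -0.28 once the median of 0.12 over all genes is taken off, and it stayed negative under every alternative tried. mec-12 (WBGene00003175, chromosome III, 3131574 to 3139234, minus strand), whose protein carries the acetylated lysine of these microtubules, had 39.1, 35.4 and 34.8 FPKM in libraries labelled let-607 RNAi, against 36.8, 35.9 and 37.96 FPKM in the control RNAi libraries. The 2 groups overlapped, and the log2 fold change was -0.02 (standard error 0.06). It turned to 0.03 after rescaling to TPM and to -0.145 after quantile normalization. With a library left out it ranged from -0.07 to 0.01. mec-12 overlaps the gene Y53G8B.1 on the opposite strand by 76 bases, and that gene averaged 8.98 FPKM in let-607 RNAi and 11.1 FPKM in control RNAi.

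The other markers of the touch receptor neurons were low in whole worms. Of 9 markers, 8 were tested, none was listed at 0 in all libraries, and none passed in either direction by limma, with 0 higher and 1 lower at an unadjusted p under 0.05. Their summed level was 19.35 to 22.65 FPKM in libraries labelled let-607 RNAi, against 20.3 to 21.4 FPKM in the control RNAi libraries, and their median log2 fold change was 0.01. mec-4, a subunit of the touch channel that was singled out after its values were seen, had 0.46, 0.44 and 0.47 FPKM in libraries labelled let-607 RNAi, against 0.69, 0.82 and 0.70 FPKM in the control RNAi libraries. mec-9 was the other marker whose let-607 RNAi libraries all lay below the control RNAi libraries, beside 13.4% of all genes tested. mec-10, which encodes the partner subunit of mec-4, lay above the control RNAi libraries, beside 35.7% (both also named after their values were seen). For 5 of the 8 tested markers the groups overlapped. The log2 fold changes of mec-4, mec-9 and mec-10 were -0.58, -0.42 and 0.31 (adjusted p = 0.198, 0.0966 and 0.253 from limma), and mec-4 lay near the filter of 0.5 FPKM. The part of touch receptor neuron content in the mec-7 value was not tested.

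tbb-4 (WBGene00006538, chromosome X, 9434452 to 9436893, minus strand) encodes a beta tubulin of ciliated sensory neurons. It had the lowest mean of the 9 genes in each group, although tbb-6 lay below it in the second control RNAi library, with 4.16, 2.92 and 4.23 FPKM in let-607 RNAi, against 3.56, 4.6 and 4.09 FPKM in control RNAi. The groups overlapped, and the log2 fold change was -0.12 (standard error 0.18). It turned positive, to 0.05, when the second let-607 RNAi library was left out, and moved to -0.33 with quantile normalization. tbb-4 also varied most between replicates, with an SD of 19.5% of the mean in let-607 RNAi and 12.7% in control RNAi, where tbb-1 varied by 1.05% and 0.805%. Of 28 genes that mark ciliated neurons, mostly parts of the transport machinery inside cilia, 18 were tested and none passed in either direction by limma, with 0 higher and 0 lower at an unadjusted p under 0.05. Their summed level was 26.9 to 27.2 FPKM in libraries labelled let-607 RNAi, against 22.6 to 25.7 FPKM in the control RNAi libraries. The groups overlapped for 14 of the 18 tested markers, and 4 lay entirely above, beside 35.7% of all genes tested. Their median log2 fold change was 0.17, beside 0.12 for all genes tested.

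**Figure D2:**
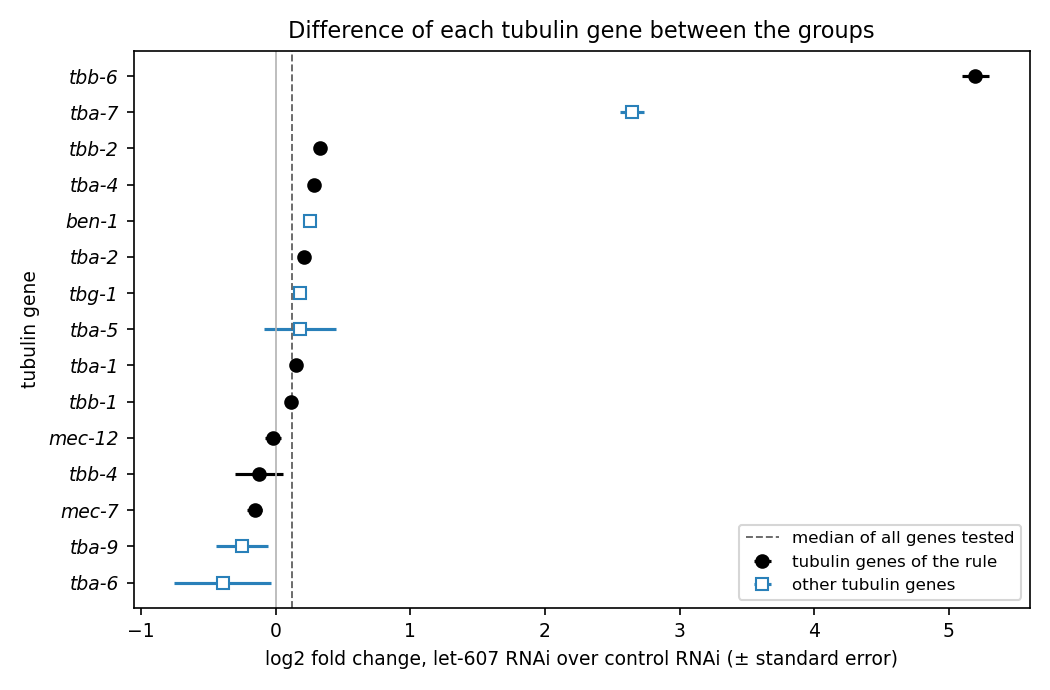
Log2 fold change of let-607 RNAi over control RNAi for the 15 tubulin genes tested, with standard errors from limma; filled circles are the 9 genes described and open squares the other tubulin genes, and the dashed line is the median of all genes tested, 0.12. tbb-6 at 5.20 and tba-7 at 2.65 stand apart from the remaining genes, which lie between -0.39 and 0.33.

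The annotation holds 7 further tubulin genes of the list, of which 6 were tested and 1, tba-7, passed as higher, beside 3.75% of all genes tested. tba-7 (WBGene00006533, chromosome III, 11368351 to 11371788, minus strand) encodes an alpha tubulin. It had 53.6, 52.7 and 47.8 FPKM in libraries labelled let-607 RNAi, against 7.55, 7.69 and 9.16 FPKM in the control RNAi libraries. The means were 51.4 ± 3.09 FPKM in let-607 RNAi and 8.13 ± 0.892 FPKM in control RNAi (SD, n = 3 each), a ratio of 6.31. On the log2 scale tba-7 rose by 2.65 (standard error 0.09, limma adjusted p = 8.84e-06). tba-7 overlaps the protein-coding gene T28D6.3 on the opposite strand by 85 bases, and T28D6.3 averaged 57.8 FPKM in let-607 RNAi and 47.02 FPKM in control RNAi. Because the values do not show how reads of overlapping genes were assigned, that overlap is a limit on the tba-7 level.

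The remaining tubulin genes did not pass. ben-1, a neuronal beta tubulin and the target of benzimidazole drugs, had 41.01, 40.1 and 38.9 FPKM in libraries labelled let-607 RNAi, against 33.2, 33.2 and 34.2 FPKM in the control RNAi libraries, a log2 fold change of 0.25 (adjusted p = 0.00603 from limma). tbg-1, the gamma tubulin, had 45.3, 46.9 and 45.8 FPKM in libraries labelled let-607 RNAi, against 40.1, 42.3 and 39.2 FPKM in the control RNAi libraries, a log2 fold change of 0.18 (adjusted p = 0.0248 from limma). Both stayed short of an absolute log2 fold change of 1. In the deposited FPKM their let-607 RNAi libraries all lay above the control RNAi libraries, beside 35.7% of all genes tested. After median-of-ratios scaling the groups overlapped for tbg-1 but not for ben-1. tba-5, tba-6 and tba-9, alpha tubulins expressed in ciliated neurons, were each under 3 FPKM in every library and overlapped between the groups. Their log2 fold changes were 0.18, -0.39 and -0.25, with adjusted p-values of 0.638, 0.437 and 0.366 from limma, and that of tba-5 turned to -0.04 after quantile normalization. tba-6 overlaps F32H2.7 by 1702 bases on the opposite strand, which limits its level. tba-8 was not tested, with means of 0.247 FPKM in let-607 RNAi and 0.26 FPKM in control RNAi.

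The order of the 16 tubulin levels was the same in both groups at the top, where tba-2, tbb-2, tbb-1, tba-1 and tba-4 followed each other without overlap between neighbours. tbb-6 took place 6 in libraries labelled let-607 RNAi, between tba-4 and tba-7, and place 11 in the control RNAi libraries, where it did not separate from tbb-4 below it. tba-7 took place 7 in let-607 RNAi and place 10 in control RNAi. Of the lower neighbours, ben-1 and mec-12 overlapped in the let-607 RNAi libraries, as did tba-9 and tba-5, and tba-5 and tba-6 overlapped in the control RNAi libraries.

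Summed over genes, the alpha and the beta tubulin mRNA can be set against each other within each library. The 9 alpha genes summed to 1966, 1952 and 1959 FPKM in libraries labelled let-607 RNAi, against 1657, 1677 and 1656.5 FPKM in the control RNAi libraries. The 6 beta genes summed to 1910, 1914 and 1897 FPKM in libraries labelled let-607 RNAi, against 1462, 1491 and 1477 FPKM in the control RNAi libraries. The beta sum holds tbb-6, by whose difference the set was chosen, so nothing is read from its larger difference between the groups. With tbb-6 included, the ratio of the alpha to the beta sum was 1.03 ± 0.00669 in let-607 RNAi and 1.13 ± 0.00617 in control RNAi (SD, n = 3 each). tbb-6 made up 9.33%, 9.77% and 8.13% of the beta sum in libraries labelled let-607 RNAi, against 0.35%, 0.278% and 0.312% in the control RNAi libraries. Over the same libraries the share of tbb-1 was 33.1% in let-607 RNAi and 39.5% in control RNAi, that of tbb-2 was 54.2% and 55.7%, and that of mec-7 was 1.35% and 1.94%. The sum holds tbb-6, so its larger share in let-607 RNAi lowers the shares of the other genes. The mean FPKM of tbb-1 was 631 in let-607 RNAi and 584 in control RNAi, and that of tbb-2 was 1033 and 822. For mec-7 it was lower in let-607 RNAi, at 25.7 and 28.7. tba-7 made up 2.62 ± 0.157% of the alpha sum in let-607 RNAi and 0.489 ± 0.0554% in control RNAi (SD, n = 3 each). The ratio of let-607 RNAi to control RNAi was 1.29 for the beta sum and 1.18 without tbb-6. It was 1.18 for the alpha sum and 1.15 without tba-7. Leaving out the gene with the largest ratio lowers each value in any case, so nothing is read from the smaller gap. Tubulin mRNAs are similar to each other in sequence, and the deposited values do not show how fragments that fit several of these genes were shared out, which limits the shares of close copies.

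**Figure D3:**
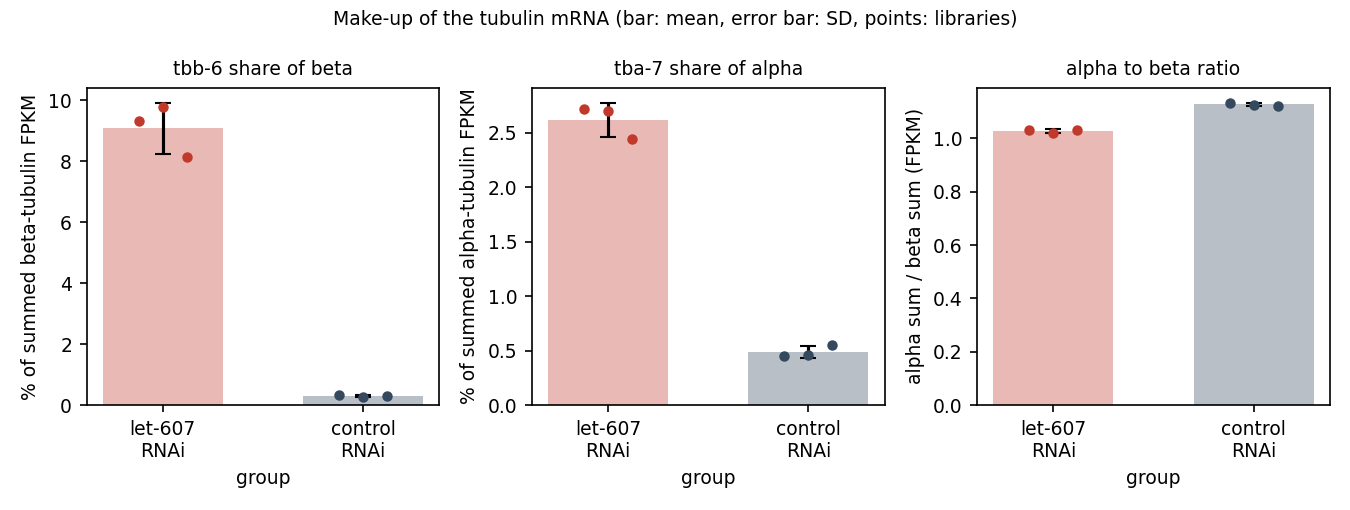
Share of tbb-6 in the summed beta tubulin FPKM (left), share of tba-7 in the summed alpha tubulin FPKM (middle) and ratio of the alpha to the beta sum (right), with bars at the mean, error bars for the SD and 1 point per library, n = 3 libraries per group. tbb-6 held 9.08% of the beta sum in let-607 RNAi and 0.313% in control RNAi. With tbb-6 in the beta sum, the alpha to beta ratio was 1.03 in let-607 RNAi and 1.13 in control RNAi.

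Newly made tubulin is handed from prefoldin to the chaperonin CCT and then to tubulin folding cofactors, which join the alpha and the beta subunit. None of the 8 chaperonin genes passed in either direction by limma, with 8 higher and 0 lower at an unadjusted p under 0.05. All 8 lay above the control RNAi libraries in every library labelled let-607 RNAi, as did 35.7% of all genes tested, with log2 fold changes from 0.15 for cct-5 to 0.37 for cct-7 (both named after their values were seen) and a median of 0.30. Their summed level was 2410 to 2487 FPKM in let-607 RNAi, against 2020 to 2067 FPKM in control RNAi. The 6 prefoldin genes had a median of 0.10, close to that of all genes tested, and the groups overlapped for 4 of them; none passed by limma, with 2 higher and 0 lower at an unadjusted p under 0.05. Of the 7 folding cofactor genes none passed by limma, with 2 higher and 0 lower at an unadjusted p under 0.05. tbca-1, whose mammalian counterpart holds beta tubulin folding intermediates, was singled out after its values were seen and had 106.8, 104.35 and 106.9 FPKM in libraries labelled let-607 RNAi, against 56.6, 56.1 and 64.6 FPKM in the control RNAi libraries. The tbca-1 log2 fold change of 0.84 (standard error 0.06, limma adjusted p = 0.000172) stayed short of 1 and was the largest among the 21 genes of these 3 folding lists.

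Enzymes that modify assembled tubulin add or remove acetyl and glutamyl groups. Of 11 such genes 9 were tested and none passed by limma, with 6 higher and 1 lower at an unadjusted p under 0.05. The lower gene was mec-17, the acetyltransferase of touch receptor neuron tubulin, named after its values were seen, with 44.3, 43.3 and 37.7 FPKM in libraries labelled let-607 RNAi, against 50.3, 47.8 and 49.1 FPKM in the control RNAi libraries. Like mec-7, it lay below the control RNAi libraries in every library labelled let-607 RNAi, beside 13.4% of all genes tested. The mec-17 log2 fold change was -0.24 (adjusted p = 0.0406 from limma). ttll-15, a member of the tubulin tyrosine ligase-like family, had the largest log2 fold change of this list, 0.78 (adjusted p = 0.0186 from limma), and was also named after its values were seen.

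Of 25 genes for proteins that bind, cut or cap microtubules, none passed by limma, with 14 higher and 0 lower at an unadjusted p under 0.05, and their median log2 fold change was 0.29. The largest value was that of maph-1.1, a MAP1-like gene named after its values were seen, at 111.9, 112.1 and 105.8 FPKM in libraries labelled let-607 RNAi, against 63.3, 59.4 and 61.2 FPKM in the control RNAi libraries, a log2 fold change of 0.84 (adjusted p = 5.55e-05 from limma). Of the kinesin motor genes 21 were found and 20 tested, with a median of 0.20 and none past the threshold, 12 higher and 0 lower at an unadjusted p under 0.05. Of 16 dynein and dynactin genes 14 were tested, with a median of 0.18 and none past the threshold by limma, 9 higher and 0 lower at an unadjusted p under 0.05. Over these 8 lists besides the tubulins, including the kinase pathway described next, 69 of 98 genes tested lay entirely above the control RNAi libraries, beside 35.7% of all genes. Of the same 98 genes 1 passed, as higher, beside 3.75% of all genes tested. These lists include genes used in the germline, such as mei-1 and zyg-9, and of the germline markers 11 of 14 lay above in the same way, with a median log2 fold change of 0.48, whose part in the list values was not tested.

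**Figure D4:**
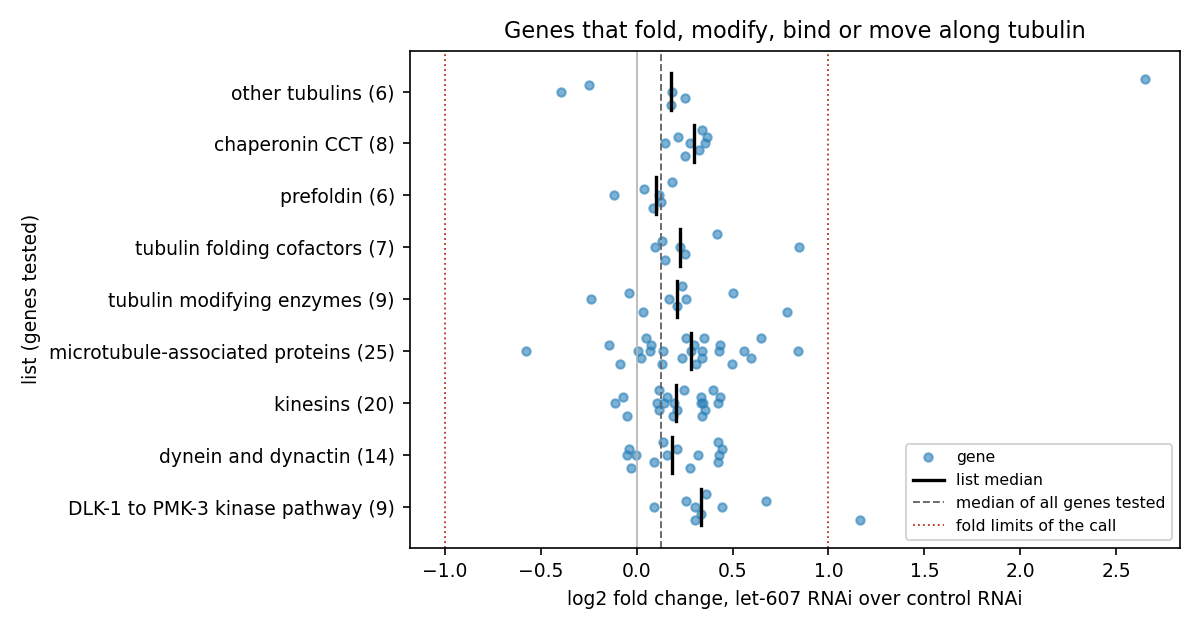
Log2 fold change of let-607 RNAi over control RNAi for each tested gene of the 9 lists of tubulin-related genes, with 1 point per gene (the vertical scatter only separates points), a black bar at each list median, a dashed line at the median of all genes tested, 0.12, and dotted lines at the fold limits of a passing gene. Only tba-7 at 2.65 and cebp-1 at 1.17 lie past a limit.

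The passing gene was cebp-1, from the list around the kinases DLK-1 and PMK-3. In C. elegans the kinase DLK-1 signals to PMK-3, and CEBP-1, a bZIP transcription factor of the C/EBP family, acts downstream of DLK-1 in injured axons. cebp-1 had 31.3, 34.8 and 28.5 FPKM in libraries labelled let-607 RNAi, against 14.1, 12.8 and 15.04 FPKM in the control RNAi libraries. On the log2 scale cebp-1 rose by 1.17 (standard error 0.09, limma adjusted p = 0.000271), or by 0.997 after quantile normalization, which falls short of the threshold. sek-3, which encodes the kinase that acts on PMK-3 in the mitochondrial response, was named after its values were seen and had 40.7, 41 and 36.3 FPKM in libraries labelled let-607 RNAi, against 27.4, 24.99 and 21.6 FPKM in the control RNAi libraries, a log2 fold change of 0.68 (adjusted p = 0.00265 from limma). dlk-1 at 0.44 and pmk-3 at 0.30 had smaller log2 fold changes (adjusted p = 0.000909 and 0.00562 from limma) and were named after their values were seen. The other genes of the list were rpm-1, fsn-1, mkk-4, uev-3 and mak-2, also named after their values were seen. Their log2 fold changes were 0.26, 0.36, 0.33, 0.31 and 0.09 (adjusted p = 0.266, 0.0137, 0.0212, 0.125 and 0.206 from limma). Of the 9 genes of this list, 7 lay entirely above the control RNAi libraries in libraries labelled let-607 RNAi, beside 35.7% of all genes tested, and 2 overlapped. The median log2 fold change was 0.33. Levels of mRNA do not show kinase activity, and the part of this pathway in the tbb-6 value was not tested.

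The 6 nearest neighbours of tbb-6 on chromosome V stayed short of an absolute log2 fold change of 1. The nearest tested protein-coding genes upstream are the glucuronosyltransferase genes ugt-56 and ugt-55 and the gene lrx-1, at gaps of 315, 2726 and 6080 bases. ugt-56 had 0.52, 0.84 and 0.54 FPKM in libraries labelled let-607 RNAi, against 0.50, 0.66 and 0.75 FPKM in the control RNAi libraries, so that the groups overlapped 315 bases from tbb-6. The log2 fold changes of ugt-56, ugt-55 and lrx-1 were -0.02, 0.20 and -0.03, with adjusted p-values of 0.975, 0.62 and 0.734 from limma. Downstream, ssp-35, a sperm-specific gene on the opposite strand, lies 131 bases beyond the end of tbb-6 and had 161, 161 and 155 FPKM in libraries labelled let-607 RNAi, against 104.32, 100.23 and 91.9 FPKM in the control RNAi libraries. ssp-35 was the neighbour with the largest log2 fold change, 0.69 (standard error 0.05, limma adjusted p = 0.00025), which did not reach 1. The following genes, twk-24 for a potassium channel and tsfm-1 for a mitochondrial translation factor, had log2 fold changes of 0.09 and 0.04 (adjusted p = 0.644 and 0.521 from limma).

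**Figure D5:**
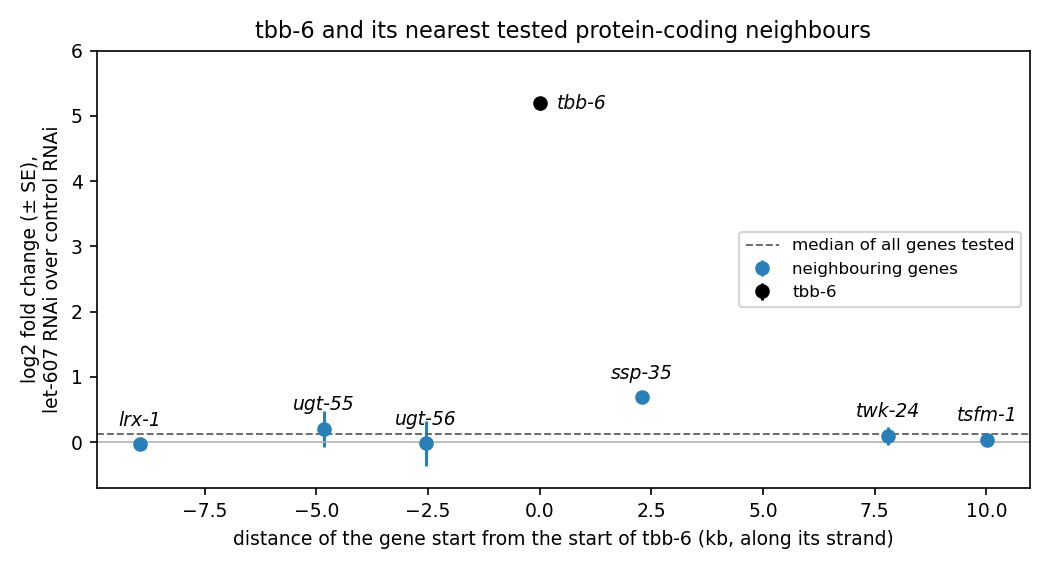
Log2 fold change of let-607 RNAi over control RNAi (points, with standard errors from limma) of tbb-6 and of the 3 nearest tested protein-coding genes on each side, against the distance in kb of each gene start from the start of tbb-6. tbb-6 lies at 5.20, ssp-35 at 0.69 and the other 5 neighbours between -0.03 and 0.20.

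The genes most like tbb-6 across the 6 libraries were found by the root mean square difference of log2(FPKM + 0.1) profiles, each centred on its own mean, over the 15452 other genes tested. The 5 nearest were F57B9.3, catp-3, Y58A7A.4, cdr-4 and Y37H2A.14, at differences of 0.14, 0.16, 0.19, 0.21 and 0.36 on the log2 scale. F57B9.3 (chromosome III) had 22.9, 26.8 and 24.7 FPKM in libraries labelled let-607 RNAi, against 0.64, 0.60 and 0.51 FPKM in the control RNAi libraries. catp-3, a P-type ATPase gene on chromosome V, had 39.7, 39.0 and 27.4 FPKM in libraries labelled let-607 RNAi, against 1.24, 0.85 and 1.02 FPKM in the control RNAi libraries. Y58A7A.4, the lowest of the 5, averaged 5.16 FPKM in let-607 RNAi and 0.0733 FPKM in control RNAi, so that its log2 fold change of 4.94 moved to 2.51 with a pseudocount of 1. With that pseudocount F57B9.3 moved from 5.19 to 4.03, catp-3 from 4.96 to 4.14 and tbb-6 from 5.20 to 4.95. With all 6 libraries, cdr-4 and Y37H2A.14 did not fall below 4.70 and 4.38 under any alternative. Whether the order of likeness holds with another pseudocount was not tested. These likenesses rest on the 2 groups alone, since the 6 libraries hold no other condition. tba-7 came at place 82 in the same order, with a difference of 1.28 on the log2 scale.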

How the data were processed

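Whole L4 worms were profiled in 6 libraries, and the sample labels gave groups and replicate numbers. The authors deposited FPKM per gene and library, rounded to 2 decimals. The methods of the study name TopHat and Cufflinks, whereas the submitters' processing notes name fastp, HISAT and RSEM, so the tool behind the values is uncertain; each names WBcel235. Libraries were made with a stranded mRNA kit, and whether the counting used strand and how shared fragments were assigned is not given in the sources used here.

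The 48197 lines held 1 broken line, which was left out, and 1418 repeats with equal values, used once. Of 46778 genes, 46603 matched Ensembl release 115. FPKM sum to 1400487 to 1485099 per library and hold no counts. Steps between low values place depth at 0.984 to 1.10 times that of the first control RNAi library, and absolute depth is unknown, so precision rests on 3 libraries per group. The labels do not say whether these came from separate cultures, so p-values may measure technical spread.

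limma 3.58.1 in R 4.3.3 (lmFit, eBayes with a mean-variance trend) was fitted without covariates to log2(FPKM + 0.1) for genes averaging 0.5 FPKM or more, with p-values adjusted over all of them, and was tested on simulated data. Fold changes on this scale understate those of low genes. Tables were made with Python 3.11.15, pandas 2.3.3 and numpy 2.4.6. The thresholds follow the methods of the study. The genes and lists were chosen with earlier results of these data known. Named genes are the 9 tubulins, the other tubulins, up to 3 passing genes per list and direction, the 5 profiles nearest to tbb-6, 3 neighbours on each side of it, and let-607; others are marked. Alternatives covered pseudocounts, filters, scaling, a replicate block, eBayes settings and each library left out. Sequences were not used here.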

Additional observations from a re-analysis of the deposited data

How the results depend on the processing

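With a mean of at least 5 FPKM, 275 genes passed as higher and 124 as lower. With quantile normalization the tubulin-related lists held 1 passing gene in place of 2, since cebp-1 moved to 0.997. The log2 fold change of tbb-6 lay between 4.95 (pseudocount 1) and 5.23 (TPM) over the 11 alternatives with all 6 libraries. With a library left out it lay between 5.12 and 5.28. For tba-7 these ranges were 2.50 to 2.69 and 2.60 to 2.73. Filters, eBayes settings and the replicate block do not move a log2 fold change here. With all 6 libraries, only pseudocounts, scaling and quantile normalization could move it. With a library left out, 538 to 630 genes passed as higher and 198 to 225 as lower, and the lists held 2 passing genes each time. Values near 0 changed sign: tba-5 to -0.038, ugt-55 to -0.040, twk-24 to -0.093 and tsfm-1 to -0.032 with quantile normalization; twk-24 to -0.025 and tsfm-1 to -0.082 with median-of-ratios scaling; ugt-56 to 0.024 and lrx-1 to 0.017 as TPM. With a library left out, ugt-56 ranged from -0.21 to 0.092, lrx-1 from -0.072 to 0.020 and twk-24 from -0.024 to 0.23. Median-of-ratios scaling brought the median of all genes to 0.01 and, with it, tbb-1 to -0.0094, tba-1 to 0.03 and tba-2 to 0.09; the cause of the other shifts was not tested.

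Same-numbered libraries of the groups did not deviate together (correlations of -0.06, 0.003 and -0.02 across genes), and the main fit did not pair them. With 3 libraries per group, these values cannot show whether same-numbered libraries were handled together. With a replicate block, 586 genes passed as higher and 218 as lower, and the lists held 2 and 0.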

Other observations

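Within the 3 libraries labelled let-607 RNAi, the third was the lowest for tbb-6 (154 FPKM, against 178 and 187), tba-7 (47.8 FPKM, against 53.6 and 52.7), cebp-1 (28.5 FPKM, against 31.3 and 34.8) and catp-3 (27.4 FPKM, against 39.7 and 39.0). It was not the lowest for 3 of the 5 genes nearest to tbb-6. These were cdr-4 (918 FPKM, against 907 and 969), F57B9.3 (24.7 FPKM, against 22.9 and 26.8) and Y37H2A.14 (226 FPKM, against 218 and 246). These genes were compared in this way only after their values were seen, and with 3 libraries the order was not tested.

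Markers of other tissues were nearer to the middle of all genes. The 6 intestine markers had a median log2 fold change of -0.03 and summed to 1654.5 to 1834 FPKM in libraries labelled let-607 RNAi, against 1767 to 1808 FPKM in the control RNAi libraries. The 7 muscle markers had a median of 0.09, the 4 epidermis markers of 0.28, the 14 sperm markers of 0.20 and the 16 pan-neuronal markers of 0.15. None of these genes passed in either direction by limma; at an unadjusted p under 0.05, 3, 3, 8 and 7 were higher in the muscle, epidermis, sperm and pan-neuronal lists and 0 in the intestine list, and 2 intestine markers and 1 sperm marker were lower.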
